A study of Mus musculus with 8 samples.

Results

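The genes described here are 9 fasting-type targets of the peroxisome proliferator-activated receptors (PPARs), namely Angptl4, Pdk4, Ucp2, Ucp3, Acot1, Acot2, Plin2, Plin5 and Cpt1a. They were chosen by name, and all 9 were found by Ensembl identifier among the 25929 genes of the expression table. All 9 passed the filter on low values, which left 14442 genes to be tested.

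The study asked how endogenous n-3 polyunsaturated fatty acids (PUFAs) act on the pressure-overloaded heart. RNA-sequencing covered 8 libraries of mouse heart, 2 in each of 4 groups. WT-Sham were wild-type C57BL/6 mice after sham surgery, and WT-TAC were wild-type mice after transverse aortic constriction (TAC), a narrowing of the aorta that loads the left ventricle. Fat1-Sham and Fat1-TAC were mice with the fat-1 transgene, a fatty acid desaturase gene of Caenorhabditis elegans that turns n-6 into n-3 PUFAs, after the same operations. The wild-type mice were littermates of the transgenic mice, surgery was done at the age of 3 months, and TAC lasted 8 weeks. The promoter that drives the transgene is not given in the sources used here, and the table, which lists mouse genes, was not searched for its mRNA. A library is named by its group and number, as in WT-TAC1. The labels call the libraries of a group independent samples without naming an animal, so the p-values measure the spread between these samples. Values are FPKM, that is, fragments scaled to gene length and library depth. Depths recovered from the values were, for replicates 1 and 2, 14163994 and 21218331 fragments (WT-Sham), 19828559 and 17961120 (WT-TAC), 17780695 and 19555675 (Fat1-Sham), and 18683010 and 18147306 (Fat1-TAC).

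PPARs are nuclear receptors that bind fatty acids and their derivatives, pair with a retinoid X receptor (RXR) and switch on genes of lipid use. In fasting, when fatty acids released from fat tissue reach the heart, PPAR target genes slow the oxidation of glucose and prepare the cardiomyocyte to store, shuttle and burn fatty acids. The 9 genes stand at different steps of this response. Pdk4 is the kinase that shuts off pyruvate dehydrogenase, Plin2 and Plin5 coat lipid droplets, Cpt1a carries long-chain acyl groups toward the mitochondrial matrix, Acot1 in the cytosol and Acot2 in the mitochondria release fatty acids from coenzyme A, Ucp2 and Ucp3 are carriers of the inner mitochondrial membrane, and Angptl4 is a secreted inhibitor of lipoprotein lipase.

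PPAR and RXR classically bind a direct repeat spaced by a single base, and the promoters of the 9 genes were read for it. The letters searched were AGGTCA written 2 times in the same direction with 1 base of any kind between, on both strands, with at most 2 mismatches outside that base, in windows from 250 bases before to 50 bases after the RefSeq start site (GRCm38.p6). Windows were found for 8 of the 9 genes, Angptl4 being the exception. Plin5 had 2 windows, so there were 9 in all. A match lay in 2 of these 9 windows, those of Plin2 and Ucp3, and in 1268 of all 32851 windows (3.86%). Each match held 2 mismatches, the most allowed. Both stretches are shown along the gene, with the matched bases in capitals.

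Plin2, chr4:86670262-86670294, minus strand, upstream of the start site: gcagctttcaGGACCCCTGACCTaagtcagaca
Ucp3, chr7:100472930-100472962, plus strand, upstream of the start site: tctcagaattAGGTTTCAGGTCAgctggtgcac

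The Ucp3 match reads along the gene and begins 51 bases before the start site. The Plin2 match reads on the opposite strand and its first base lies 225 bases before the start site. A match is a description of letters and not a binding site, and a window without one says nothing of binding elsewhere.

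A second pair of sequences bears on how far Acot1 and Acot2 can be told apart. The 2 genes are neighbours on chromosome 12 (GRCm38, GENCODE M21), Acot2 at chr12:83987861-83993873 and Acot1 at chr12:84009490-84018371, both on the plus strand. Their coding sequences were 95.2% identical over 1239 aligned bases, with 59 differing bases and an identical run of 273 bases. The 90 bases that differ most lie in the third of 3 exons of each gene and hold 14 differences, which are in capitals.

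Acot1, chr12:84016916-84017005: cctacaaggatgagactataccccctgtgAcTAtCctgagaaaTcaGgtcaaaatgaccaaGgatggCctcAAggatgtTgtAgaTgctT
Acot2, chr12:83992638-83992727: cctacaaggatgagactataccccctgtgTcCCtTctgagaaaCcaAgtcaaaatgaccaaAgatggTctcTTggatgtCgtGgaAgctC

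Fragments from the identical run fit both genes, and how the authors assigned such fragments is not given in the sources used here, so the split of expression between Acot1 and Acot2 is uncertain. Ucp2 and Ucp3 are also neighbours, at chr7:100493337-100502020 and chr7:100472990-100486432, but their coding sequences were only 75.5% identical over 918 aligned bases, with no identical run over 24 bases. Ucp2 overlaps Dnajb13 and Ucp3 overlaps Gm10603, each on the opposite strand. Whether strand was used in counting is not given, so fragments of these overlaps cannot be told apart. No annotated gene overlaps the other 7 genes.

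Several libraries stood apart before any comparison was made. Summed over 8 markers of immature T cells, FPKM was 1910 in WT-TAC1, with Lck as the most abundant, and at most 2.85 in each of the other 7 libraries. The sum of 12 cardiomyocyte genes, led by Myh6, was 28700 in WT-TAC1 and between 52500 and 69200 elsewhere. Fast skeletal muscle genes (7, led by Mylpf) summed to 172 in WT-TAC1 and to at most 10.6 in the other libraries. All 8 airway and epithelial markers were above 3 fragments in WT-TAC1 and WT-TAC2, where they summed to 1610 and 3790, with Bpifa1 the most abundant. The same 8 summed to 50.4 in Fat1-Sham1 and to at most 4.85 in the remaining 5 libraries.

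Fat and atrial tissue also differed among libraries. The 5 atrial genes, led by Myl7, summed to 1030 and 3800 in WT-Sham, 2460 and 2460 in WT-TAC, 1320 and 25.8 in Fat1-Sham, and 52.8 and 35.7 in Fat1-TAC, so that 3 fat-1 libraries held almost no atrial signal. The white adipocyte genes (10, led by Fabp4) summed to 451 and 566 in WT-Sham, 990 and 1440 in WT-TAC, 600 and 321 in Fat1-Sham, and 297 and 576 in Fat1-TAC. Fabp4, which other cells also express, was 196 to 392 FPKM in all 8 libraries and made up 250 of the 297 in Fat1-TAC1. The adipocyte hormone gene Adipoq had 28.1 and 35.1 FPKM in WT-Sham, 100 and 120 in WT-TAC, 42.5 and 9.04 in Fat1-Sham, and 0.818 and 40.7 in Fat1-TAC. The droplet coat Plin1 had 0.371 FPKM and the adipocyte protease Cfd 4.06 FPKM in Fat1-TAC1, against 77.0 and 105 (Plin1) and 315 and 413 (Cfd) in WT-TAC. Between Fat1-TAC and WT-TAC the median log2 difference of the 10 genes was -2.34 (-0.40 over all genes), with 10 of 10 below 0 (78% of all genes) and 0 called by limma (1.43%). Without adjustment, 8 of the 10 were lower at a p under 0.05 and 1.5-fold, beside 23.5% of all genes. For 5 brown adipocyte genes, led by Cidea, the sums were 41.8 and 86.9, 85.3 and 226, 86.3 and 20.6, and 19.7 and 19.8 in the same order of groups. The brown fat marker Ucp1 had 12.0 to 102 FPKM in the 5 libraries with atrial genes, and 0.0313, 0 and 0.943 FPKM in Fat1-Sham2, Fat1-TAC1 and Fat1-TAC2. The labels name ventricular tissue and the methods whole hearts. In bulk tissue, fewer cells of a type and less RNA per cell cannot be told apart.

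Levels of the 9 genes spanned from Acot1, with a mean of 8.96 FPKM over the 8 libraries, to Pdk4, with 180. Ucp2 had a mean of 91.8, Plin2 76.8, Plin5 49.8, Acot2 30.2, Ucp3 20.2, Cpt1a 12.8 and Angptl4 10.5 FPKM. The range between libraries did not follow the level. Ucp2 was 6.66 times as high in its highest library as in its lowest, Angptl4 5.85 times, Ucp3 5.3 times and Pdk4 5.05 times, whereas Plin2 and Cpt1a spanned only 1.67 and 1.89 times.

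**Figure D1:**
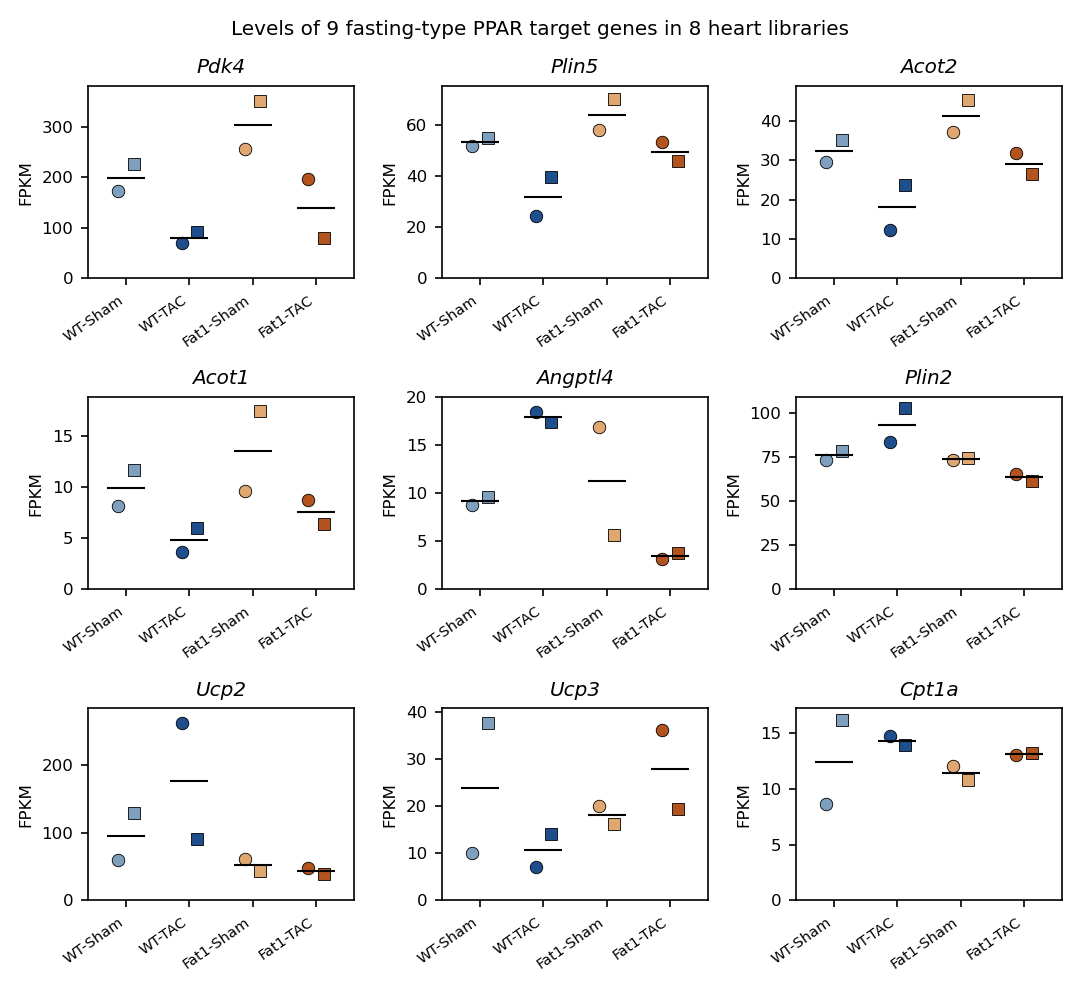
FPKM (vertical axes, from 0) of the 9 genes in each library, by group (horizontal axes), with replicate 1 as a circle, replicate 2 as a square and the mean as a line. In Pdk4, Plin5, Acot2 and Acot1, both TAC libraries lie below both sham libraries within each genotype, and Angptl4 is near 18 FPKM in both WT-TAC libraries and under 4 FPKM in both Fat1-TAC libraries.

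Group differences were tested with limma on log2(FPKM + 1) over all 14442 genes, with all 8 libraries in a single fit and Benjamini-Hochberg adjustment over all genes, and a gene was called at an adjusted p under 0.1 and a 1.5-fold change, the cutoffs of the study. On this scale the change of a low gene is understated. For 1 gene and 2 libraries per group, the smallest two-sided p that exact permutation allows is 0.33. Comparisons that share a group, such as WT-TAC with WT-Sham and Fat1-TAC with WT-TAC, share libraries and are not independent of each other.

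Of the 9 genes, 1 was called in 1 of the comparisons, Angptl4 between Fat1-TAC and WT-TAC, where 1.43% of all genes were called. Without adjustment (p under 0.05 and 1.5-fold), Acot2 and Plin5 were higher and Angptl4 and Ucp2 lower in that comparison, beside 1.72% and 23.5% of all genes. Between WT-TAC and WT-Sham, 0 of the 9 were called, against 0.935% of all genes, and 4 of the 9 (Pdk4, Acot1, Acot2 and Plin5) were lower at an unadjusted p under 0.05 and 1.5-fold, against 1.11% of all genes. In fat-1 hearts, TAC against sham gave 0 calls by limma, against 0.00692% of all genes, and at an unadjusted p under 0.05 Angptl4 and Pdk4 were lower, against 0.533% of all genes at that p and 1.5-fold. The sham comparison of the genotypes gave 0 calls among the 9 genes and 0% among all genes, with none of the 9 at an unadjusted p under 0.05 and 1.5-fold, where 0.201% of all genes were higher and 0.692% lower. For the interaction and for TAC and fat-1 averaged over the other factor, 0 of the 9 were called as well, against 0.0692%, 0% and 0.0415% of all genes. As a count-based check, limma-voom on the recovered fragments called 0 of the 9 genes in any of these comparisons.

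Separation of the libraries was more common than a call. In wild-type hearts 4 of the 9 genes were lower after TAC without overlap and 2 higher (Angptl4 and Plin2), where 7.09% of all genes were lower and 52.5% higher. In fat-1 hearts 6 were lower, those 4 with Angptl4 and Plin2, and Cpt1a was higher, against 21.5% and 26.8% of all genes. Between the TAC groups, Acot1, Acot2, Plin5 and Ucp3 were higher in the transgenic libraries (9.33% of all genes), and Angptl4, Plin2, Ucp2 and Cpt1a were lower (57.1%). Among the sham libraries, Pdk4, Acot2 and Plin5 were higher with fat-1 and 0 genes of the 9 were lower, beside 15.5% and 16.5% of all genes.

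Pdk4 was the most abundant of the 9 genes and had the largest TAC difference shared by both genotypes. Pdk4 (ENSMUSG00000019577, chr6:5483351-5496309, minus strand) had 172 and 226 FPKM in WT-Sham, 69.9 and 90.8 in WT-TAC, 256 and 352 in Fat1-Sham, and 196 and 80.7 in Fat1-TAC. Both TAC libraries lay below both sham libraries in each genotype, without overlap, and Fat1-TAC1 stood well above Fat1-TAC2. The log2 fold change with TAC was -1.30 (SE 0.40, adjusted p = 0.175) in wild-type and -1.25 (SE 0.40, adjusted p = 1) in fat-1 hearts. Averaged over the genotypes it was -1.27 (SE 0.29, adjusted p = 0.196), lower in 4 of 4 TAC libraries relative to the sham libraries of their genotype. Leaving out Fat1-TAC1 gave a fat-1 value of -1.88, and leaving out Fat1-TAC2 gave -0.62. The effects of TAC in the 2 genotypes differed by 0.05 (95% interval -1.30 to 1.39). Between genotypes Pdk4 differed by 0.61 on the log2 scale (Fat1-Sham minus WT-Sham, adjusted p = 1), without overlap of the libraries, and by 0.65 in the TAC groups (Fat1-TAC minus WT-TAC, adjusted p = 0.261), where the libraries overlapped. The same omissions gave 0.02 and 1.29 for the TAC groups. The other 2 measured kinases of its family with the highest levels held different patterns, Pdk2 with 177 FPKM in WT-TAC1 and 325 to 395 in the other 7 libraries, and Pdk1 between 93.2 and 111 in all 8.

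Plin5, which sits on lipid droplets and tethers them to mitochondria, had 51.7 and 54.9 FPKM in WT-Sham, 24.3 and 39.8 in WT-TAC, 58.0 and 70.2 in Fat1-Sham, and 53.3 and 46.0 in Fat1-TAC (ENSMUSG00000011305, chr17:56111601-56117596, minus strand). As with Pdk4, both TAC libraries were lower than both sham libraries in each genotype, and WT-TAC1 was the lowest of all. The log2 fold change with TAC was -0.76 (SE 0.24, adjusted p = 0.175) in wild-type and -0.36 (SE 0.24, adjusted p = 1) in fat-1 hearts. Leaving out a library moved the fat-1 value to between -0.49 and -0.22. Relative to WT-TAC, Plin5 was 0.65 higher in Fat1-TAC (SE 0.24, adjusted p = 0.163), with no overlap.

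Acot2 (ENSMUSG00000021226), the mitochondrial thioesterase, had 29.6 and 35.1 FPKM in WT-Sham, 12.3 and 23.7 in WT-TAC, 37.2 and 45.3 in Fat1-Sham, and 31.8 and 26.4 in Fat1-TAC. Its cytosolic neighbour Acot1 (ENSMUSG00000072949) had 8.19 and 11.7 FPKM in WT-Sham, 3.61 and 6.04 in WT-TAC, 9.66 and 17.4 in Fat1-Sham, and 8.69 and 6.36 in Fat1-TAC. Each gene was lowest in WT-TAC1 and highest in Fat1-Sham2, and for each the TAC libraries lay below the sham libraries of their genotype. In wild-type hearts the log2 fold change with TAC was -0.88 (SE 0.30, adjusted p = 0.175) for Acot2 and -0.92 (SE 0.35, adjusted p = 0.177) for Acot1. In fat-1 hearts it was -0.49 for Acot2 and -0.73 for Acot1, both with an adjusted p of 1. Leaving out a library moved this Acot1 value to between -1.13 and -0.34. Between the TAC groups both genes were higher in Fat1-TAC without overlap, by 0.73 for Acot2 (adjusted p = 0.167) and by 0.57 for Acot1 (adjusted p = 0.263).

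These 4 genes were thus lower after TAC with no overlap in both genotypes, in 2 comparisons that share no library. The same held for 388 of the 14442 genes tested (2.69%), while 2291 genes (15.9%) were higher after TAC without overlap in both genotypes. The cardiomyocyte markers Myh6, Actc1 and Atp2a2 and the PPAR targets Acadl and Slc25a20 were among the genes lower in both. Myh6 had 13400 and 15500 FPKM in WT-Sham, 7410 and 13300 in WT-TAC, 15300 and 17700 in Fat1-Sham, and 12100 and 13200 in Fat1-TAC. Other cardiomyocyte markers, such as Tnni3, were higher after TAC in fat-1 hearts. After scaling by the median of ratios, all 4 still lay lower without overlap in both genotypes, as did 11.6% of all genes. The 9 genes had a median log2 fold change with TAC of -0.76 in wild-type hearts, where the median over all genes tested was 0.39, and of -0.36 in fat-1 hearts, where it was 0.03. The 12 cardiomyocyte markers had medians of -0.53 in wild-type and 0.04 in fat-1 hearts. For 30 other PPAR targets the medians were -0.41 and -0.17.

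**Figure D2:**
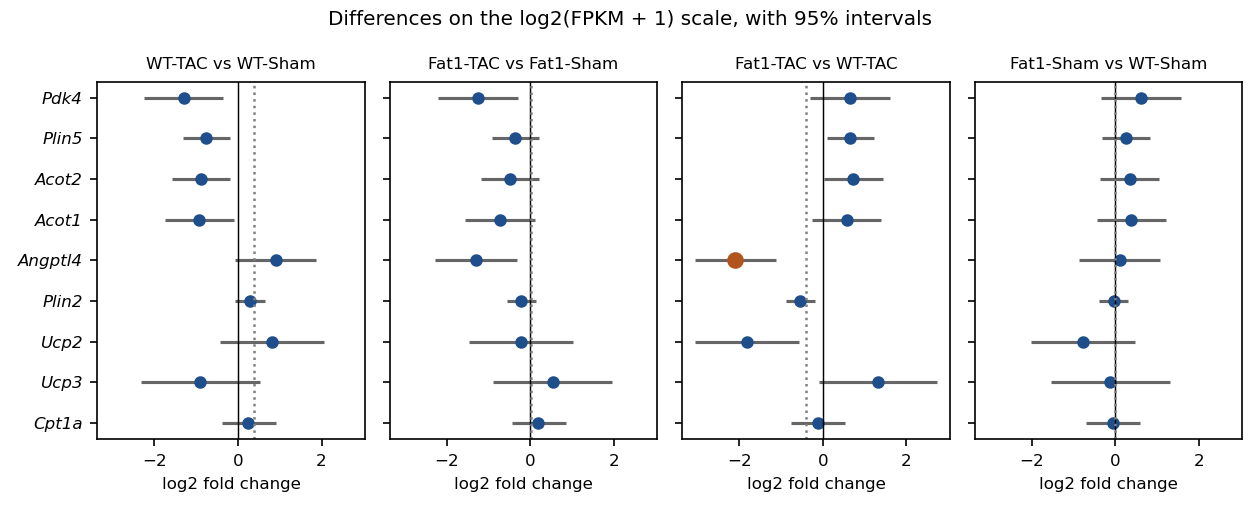
Log2 fold changes on the log2(FPKM + 1) scale (horizontal axes) of the 9 genes in 4 comparisons, with 95% intervals of the limma fit as bars, 0 as a solid line and the median of all genes tested as a dotted line. Angptl4 between Fat1-TAC and WT-TAC, the larger orange point at -2.10, is the single call.

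The wild-type values depended in size on WT-TAC1, the library with the lowest cardiomyocyte sum. Without it, the log2 fold change with TAC was -1.11 for Pdk4, -0.62 for Acot1, -0.43 for Acot2 and -0.41 for Plin5, with adjusted p between 0.285 and 0.396. The differences between Fat1-TAC and WT-TAC were then 0.31 for Plin5, 0.28 for Acot2 and 0.26 for Acot1. Without WT-TAC2, which leaves WT-TAC1 alone and assumes that it varies like the other groups, the values were -1.48, -1.23, -1.32 and -1.10, and all 4 were called, together with Ucp2, as were 7065 genes in all.

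When FPKM was rescaled so that 12 cardiomyocyte genes had the same median ratio in every library, the 4 genes stayed lower after TAC, but WT-TAC1 was no longer the lowest library for any of them (Acot2 was 22.4 there and 22.3 in Fat1-TAC2). Rescaled Pdk4 was 159 and 221 in WT-Sham, 127 and 90.2 in WT-TAC, 239 and 291 in Fat1-Sham, and 182 and 68.3 in Fat1-TAC. Rescaled Plin5 was 48.0 and 53.8, 44.3 and 39.5, 54.0 and 58.1, and 49.6 and 39.0 in the same order of groups. All 4 genes still had both TAC libraries under both sham libraries in each genotype, as did 72 of the 14442 genes (0.499%). Relative to the mean of the WT-Sham libraries, Acot2 in WT-TAC1 was at 0.379 as deposited and at 0.724 after rescaling, and Plin5 at 0.456 and 0.872. Between Fat1-TAC and WT-TAC, the libraries of Acot1, Acot2 and Plin5, separated as deposited, overlapped after this rescaling, and those of Pdk4 overlapped under both. The log2 differences between these groups were then 0.07 for Plin5, 0.16 for Acot2 and 0.06 for Acot1. Scaling by the median of ratios gave larger ones, 1.11 for Plin5, 1.17 for Acot2, 0.94 for Acot1 and 1.12 for Pdk4. Under that scaling all 4 genes were higher in Fat1-TAC without overlap.

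**Figure D3:**
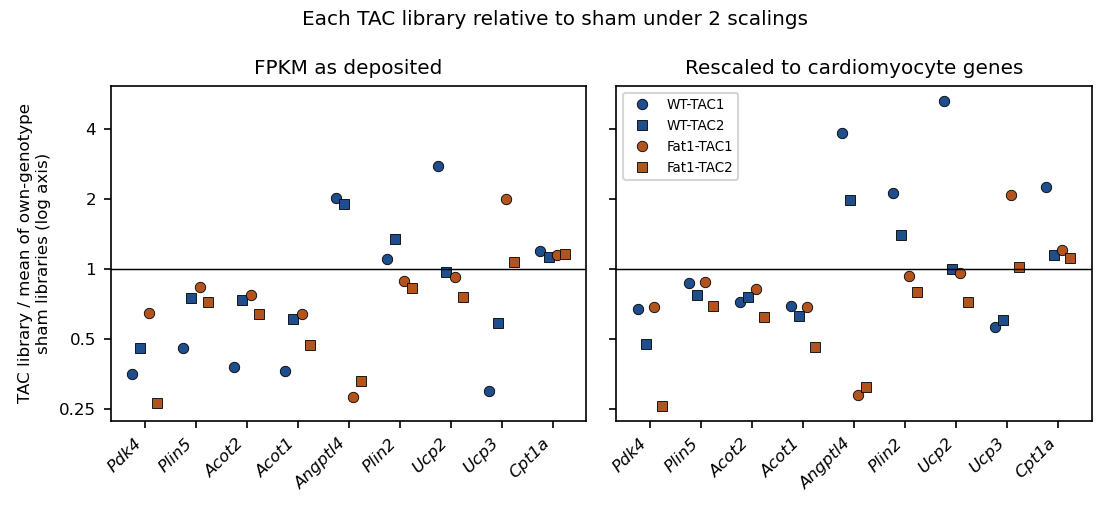
Each TAC library divided by the mean of the 2 sham libraries of its genotype (vertical axis, log scale) for the 9 genes (horizontal axis), from FPKM as deposited on the left and from FPKM rescaled to 12 cardiomyocyte genes on the right. Points of Pdk4, Plin5, Acot2 and Acot1 lie below 1 in all 4 TAC libraries under both scalings, and the WT-TAC1 points of Acot2 and Plin5 move from 0.379 to 0.724 and from 0.456 to 0.872.

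In FPKM as deposited, Angptl4 had the widest gap of these genes between the TAC groups. After scaling by the median of ratios, Ucp3 had a wider log2 difference (1.74, against -1.67 for Angptl4). Without WT-TAC2, that of Ucp2 was wider (-2.57, against -2.14 for Angptl4). Angptl4 (ENSMUSG00000002289, chr17:33773750-33781830, minus strand) had 8.76 and 9.60 FPKM in WT-Sham, 18.5 and 17.4 in WT-TAC, 16.9 and 5.70 in Fat1-Sham, and 3.16 and 3.73 in Fat1-TAC, from between 89 and 553 fragments. WT-TAC was above WT-Sham and Fat1-TAC was below Fat1-Sham, both without overlap, but the 2 Fat1-Sham libraries were 2.96 times apart. Against WT-TAC, Angptl4 fell in Fat1-TAC by 2.10 on the log2 scale (SE 0.41, limma adjusted p = 0.0997), lower in 2 of 2 libraries. The study singled out Angptl4, with Fabp3 and Pck1, in these same samples, so the call is not independent evidence of its direction. The study also measured these genes by RT-qPCR. It reported Fabp3 as higher, and Pck1 and Angptl4 as lower, with the fat-1 transgene under pressure overload. Whether the RT-qPCR used the same hearts is not given in the sources used here. With TAC, its log2 fold change was 0.90 (SE 0.41, adjusted p = 0.191) in wild-type and -1.30 (SE 0.41, adjusted p = 1) in fat-1 hearts. The difference between these effects was -2.20 (SE 0.59, adjusted p = 0.495). The fat-1 value was -0.59 without Fat1-Sham1 and -2.01 without Fat1-Sham2, and the difference between the effects was then -1.49 and -2.91.

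The call of Angptl4 lay at the threshold. It was lost under 10 of 11 other settings with all libraries, where the log2 difference stayed between -2.64 and -1.58, and in 5 of 8 fits with a library left out, with adjusted p of 0.151 and 0.150 without WT-Sham1 or WT-Sham2, 0.190 without WT-TAC1, and 0.469 and 0.223 without Fat1-TAC1 or Fat1-TAC2. Rescaling to cardiomyocyte genes gave -2.64 (adjusted p = 0.0955). The 3 libraries with the lowest Angptl4, Fat1-TAC1, Fat1-TAC2 and Fat1-Sham2 at 3.16, 3.73 and 5.70 FPKM, were the 3 in which the 5 atrial genes summed to 52.8, 35.7 and 25.8 FPKM. In the other 5 libraries, Angptl4 had 8.76 to 18.5 FPKM and the atrial genes summed to between 1030 and 3800. Angptl4 is also abundant in adipocytes, and the white adipocyte genes were highest in WT-TAC1 and WT-TAC2, with sums of 990 and 1440. Their sum in Fat1-TAC2, 576, was close to the 566 of WT-Sham2, and Adipoq was 40.7 and 35.1 FPKM in these libraries, while Angptl4 was 3.73 FPKM in the former and 9.60 FPKM in the latter. These 2 libraries were not alike in brown adipocyte genes, which summed to 19.8 in Fat1-TAC2 and 86.9 in WT-Sham2. Ucp1 was 0.943 and 44.0 FPKM in them. In Fat1-TAC1, the library with the lowest Angptl4, Adipoq was 0.818 FPKM. The adipocyte hormone gene Lep was at or under 3 fragments in Fat1-Sham2 and Fat1-TAC1. The part of atrial or fat tissue in the difference of Angptl4 was not tested.

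**Figure D4:**
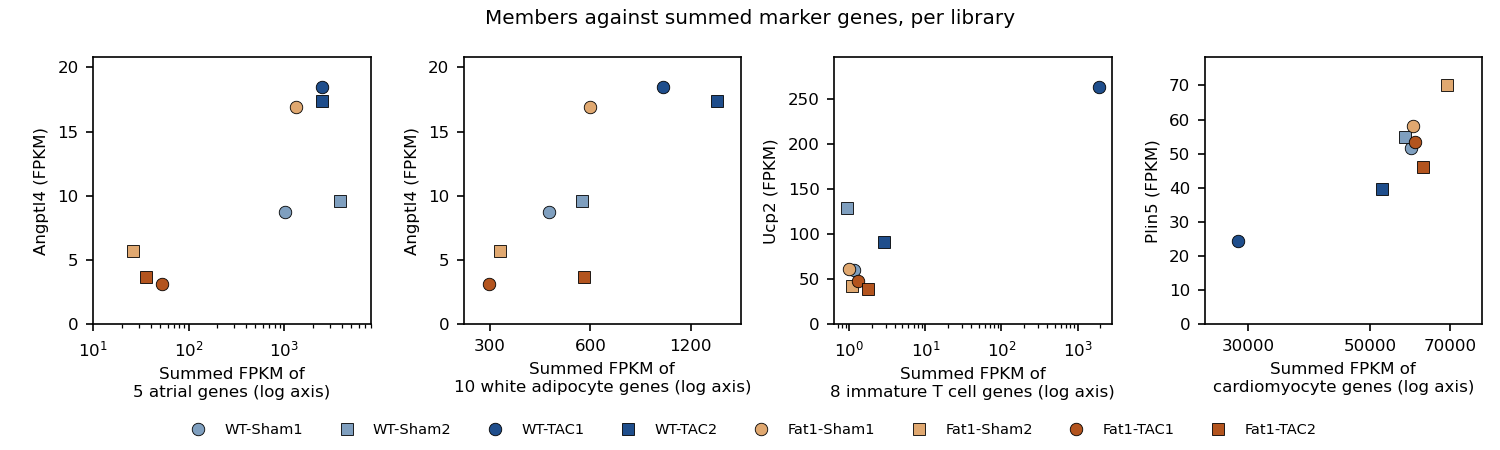
FPKM of Angptl4, Ucp2 and Plin5 (vertical axes, from 0) against the summed FPKM of marker genes (horizontal axes, log scale), 1 point per library, coloured by group, with replicate 1 as a circle and replicate 2 as a square. The 3 libraries with atrial sums under 60 have the lowest Angptl4, WT-TAC1 stands alone with a sum of 1910 for immature T cell genes and 263 FPKM of Ucp2, and the same library has the lowest cardiomyocyte sum and the lowest Plin5.

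Plin2, the droplet coat found in most tissues, varied little but in the same directions as Angptl4. Plin2 (ENSMUSG00000028494, chr4:86648386-86670060, minus strand) had 73.6 and 78.6 FPKM in WT-Sham, 83.9 and 103 in WT-TAC, 73.6 and 74.6 in Fat1-Sham, and 65.8 and 61.5 in Fat1-TAC. WT-TAC lay above WT-Sham and Fat1-TAC below Fat1-Sham, with no overlap in either, whereas the sham groups overlapped. The log2 fold change was 0.29 (SE 0.15, adjusted p = 0.218) in wild-type and -0.22 (SE 0.15, adjusted p = 1) in fat-1 hearts. Between the TAC groups it was -0.54 (SE 0.15, adjusted p = 0.152), and the effects of TAC in the 2 genotypes differed by -0.50 (SE 0.21, adjusted p = 0.495). Scaling to cardiomyocyte genes gave -1.13 and -0.98 for these 2 values, and scaling by the median of ratios gave -0.08 for each. Of all genes tested, 7.93% were, like Angptl4 and Plin2, higher after TAC without overlap in wild-type and lower without overlap in fat-1 hearts. After scaling by the median of ratios, the libraries of Plin2 overlapped in wild-type hearts and between the TAC groups, and its log2 fold change in wild-type TAC was -0.19, so that direction depended on the scaling. The wild-type libraries of Plin2 also overlapped when mitochondrially encoded genes were left out of the scaling. After scaling by the median of ratios, 3.25% of all genes had this opposite separation in the 2 genotypes. For Angptl4 the separation held under the 3 other scalings examined.

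Ucp2 had the widest range of the 9 genes, with its highest value in WT-TAC1. Ucp2 (ENSMUSG00000033685) had 60.3 and 129 FPKM in WT-Sham, 263 and 91.4 in WT-TAC, 61.0 and 42.8 in Fat1-Sham, and 48.0 and 39.4 in Fat1-TAC. WT-TAC1 was the highest and both sham and TAC libraries overlapped within each genotype, while both Fat1-TAC libraries lay below both WT-TAC libraries. That last difference was -1.81 on the log2 scale (SE 0.53, adjusted p = 0.157). Without WT-TAC1 it was -1.05 (adjusted p = 0.268), and the log2 fold change with TAC in wild-type hearts moved from 0.81 (adjusted p = 0.296) to 0.05. All 8 immature T cell markers were above 3 fragments in WT-TAC1, where Lck had 453, Cd4 302 and Cd8b1 276 FPKM, and Ucp2 is a gene that immune cells also express. Macrophage genes (8, led by Lyz2) summed to 731 and 547 in WT-TAC and to 349 to 493 elsewhere. In WT-Sham2, which had the second highest Ucp2, the T cell markers summed to 0.928. The part of immune cells in the level of Ucp2 was not tested.

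Ucp3, the carrier typical of muscle, had 10.1 and 37.8 FPKM in WT-Sham, 7.15 and 14.1 in WT-TAC, 20.1 and 16.3 in Fat1-Sham, and 36.3 and 19.4 in Fat1-TAC (ENSMUSG00000032942). The 2 WT-Sham libraries were 3.75 times apart, and the TAC and sham libraries overlapped in both genotypes. Only the TAC groups were separated, Fat1-TAC being higher by 1.32 on the log2 scale (SE 0.60, adjusted p = 0.178). That difference was 0.87 without WT-TAC1, 0.76 after scaling to cardiomyocyte genes and 1.74 after scaling by the median of ratios. The log2 fold change with TAC was -0.90 (SE 0.60, 95% interval -2.32 to 0.52) in wild-type and 0.53 (SE 0.60, 95% interval -0.89 to 1.95) in fat-1 hearts, so the intervals held differences in either direction. Leaving out a library moved the wild-type value to between -1.81 and 0.00 and the fat-1 value to between 0.10 and 0.97.

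Cpt1a, the liver form of carnitine palmitoyltransferase 1, was the steadiest of the 9 genes apart from Plin2. Cpt1a (ENSMUSG00000024900, chr19:3322334-3385733, plus strand) had 8.59 and 16.2 FPKM in WT-Sham, 14.7 and 13.9 in WT-TAC, 12.0 and 10.8 in Fat1-Sham, and 13.0 and 13.2 in Fat1-TAC. The lowest and the highest library were both WT-Sham, so the other 6 lay within the spread of that group. With TAC, the log2 fold change was 0.25 (SE 0.27, 95% interval -0.39 to 0.90) in wild-type and 0.19 (SE 0.27, 95% interval -0.45 to 0.84) in fat-1 hearts. The wild-type value was -0.19 after scaling by the median of ratios and -0.27 after quantile normalization, so its direction depended on the scaling. The Fat1-TAC libraries of Cpt1a lay below the WT-TAC libraries as deposited and above them after scaling by the median of ratios, without overlap in either. The muscle form Cpt1b, the main form of adult cardiomyocytes, was listed at only 4.67 to 9.14 FPKM, a gene named after its values were seen.

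How the 9 genes varied together was described over the 8 libraries, for all 36 pairs. A total of 7 pairs had a Pearson's r with an exact two-sided permutation p, adjusted over the 36 pairs, under 0.1, and all 7 were positive. Of these, 6 were the pairs among Pdk4, Acot1, Acot2 and Plin5, with r from 0.873 (Pdk4 and Plin5) to 0.996 (Acot2 and Plin5). For Acot2 and Plin5, Spearman's rho was 1, the exact permutation p was 2.48e-05 for r and 4.96e-05 for rho, and the adjusted p were 0.000893 and 0.00179. Without WT-TAC1 and Fat1-Sham2, the libraries farthest from the median of Acot2, r was 0.969. Pdk4 and Acot1 had r = 0.934 and rho = 0.952 (exact permutation p = 0.000248 and 0.00114, adjusted p = 0.00179 and 0.00685), and r = 0.918 without WT-TAC1 and Fat1-TAC2. The points share the libraries, with the group differences and the tissue makeup given above, so these values describe the libraries as a whole and were not computed within groups of 2.

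How often other genes reached as high a correlation differed widely between pairs. Of 8993 candidate genes with a mean of at least 5 FPKM, 4.97% had an r with Plin5 as high as that of Pdk4, and 1.42% one as high as that of Acot1, whereas 0 had one as high as that of Acot2. With Pdk4, 0.0111% of the candidates had an r as high as that of Acot1 and 0.2% one as high as that of Plin5. The seventh pair was Angptl4 and Plin2, with r = 0.783 and rho = 0.786 (exact permutation p = 0.0132 and 0.0279, adjusted p = 0.0679 and 0.126). Without Fat1-TAC1 and Fat1-TAC2 its r was 0.546, so it rested partly on these libraries. As high an r was found in 4.03% of the candidates with Angptl4 and in 2.94% with Plin2. By Spearman's rho, Angptl4 and Ucp2 took its place under 0.1, with rho = 0.857 and r = 0.707 (exact permutation p = 0.0107 and 0.0463, adjusted p = 0.0551 and 0.174), and r was 0.595 without Fat1-TAC1 and Fat1-TAC2. An r with Ucp2 as high as that of Angptl4 was found in 49.8% of the candidates, and an r with Angptl4 as high as that of Ucp2 in 9.82%. Ucp2 had r = -0.765 with Plin5 (exact permutation p = 0.0335, adjusted p = 0.151) but rho = -0.357 (exact permutation p = 0.389, adjusted p = 0.539), and without WT-Sham2 and WT-TAC1 its r was -0.550.

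**Figure D5:**
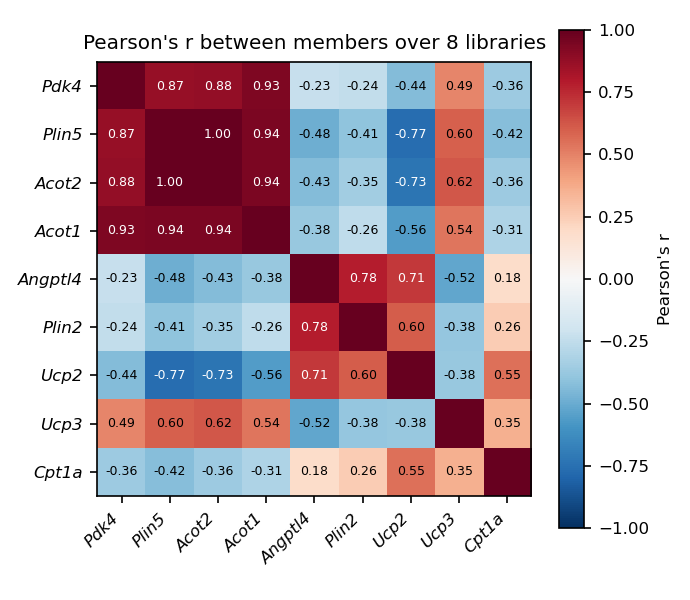
Pearson's r of log2(FPKM + 1) between each 2 of the 9 genes over the 8 libraries, from -1 in blue to 1 in red, with genes on both axes. Pdk4, Plin5, Acot2 and Acot1 form a block with r between 0.873 and 0.996, and Angptl4 and Plin2 a pair with 0.783.

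Outside the 9 genes, those most like Acot2 and Plin5 over the 8 libraries were Pde7b, with r = 0.996 and 0.988, and Mlycd, malonyl-CoA decarboxylase, with r = 0.995 and 0.992. Mlycd had 41.1 and 46.0 FPKM in WT-Sham, 19.4 and 33.3 in WT-TAC, 53.1 and 57.1 in Fat1-Sham, and 45.4 and 37.2 in Fat1-TAC, so it too was lower after TAC without overlap in both genotypes. The third in likeness was Rab12 for Acot2 (r = 0.988) and Amacr for Plin5 (r = 0.985). For Acot1 the 3 most alike were Lmcd1 (r = 0.988), Ubxn2a (0.974) and Coa5 (0.973), and for Pdk4 Egln3 (0.953), Slc25a46 (0.920) and Pla2g12a (0.919). Angptl4 was followed most closely by Spg20 (0.968), Mras (0.960) and Mesd (0.956), and Plin2 by Aga (0.970), Dpyd (0.965) and Dhrs7b (0.965). Galnt1 (0.993), Ugdh (0.989) and Camk1d (0.983) were most like Ucp2, Nmrk2 (0.950), Zfp970 (0.934) and Fbxo8 (0.927) most like Ucp3, and Kcnh2 (0.950), Aldh9a1 (0.946) and Nrbf2 (0.945) most like Cpt1a. Likeness is over 8 libraries that differ in depth and makeup, and is given without a test.

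Other lipid genes known as PPAR targets were set beside the 9. Of a list of 35, 34 were found and 30 tested, and limma called 0 of them in any comparison, with 1 higher and 2 lower in wild-type TAC at an unadjusted p under 0.05 and 1.5-fold, where 22.7% of all genes were higher and 1.11% lower, and 0 in fat-1 TAC. With TAC, 20 of the 30 had a log2 fold change below 0 in wild-type hearts (median -0.41) and 22 in fat-1 hearts (median -0.17), where 20.7% and 45.3% of all genes were below 0. Of the 12 cardiomyocyte markers, 11 were below 0 in wild-type TAC (median -0.53) and 5 in fat-1 TAC (median 0.04). In the comparison of Fat1-TAC with WT-TAC, 5 of the 30 were higher and 2 lower without adjustment (p under 0.05 and 1.5-fold), beside 1.72% and 23.5% of all genes. There 22 of the 30 were above 0 (median 0.37), where 22% of all genes were, and the cardiomyocyte markers were above 0 in 12 of 12 (median 0.56). The part of cardiomyocyte content in the values of these lipid genes was not tested.

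The most abundant gene of that list was Fabp3, the fatty acid-binding protein of heart muscle. Fabp3 had 2800 and 2440 FPKM in WT-Sham, 1360 and 2470 in WT-TAC, 2630 and 3070 in Fat1-Sham, and 3950 and 3550 in Fat1-TAC. Both Fat1-TAC libraries were the highest of the 8, and the log2 difference from WT-TAC was 1.03 (SE 0.31, adjusted p = 0.159). Lpl, the lipoprotein lipase that Angptl4 inhibits, had 1910 and 2060 FPKM in WT-Sham, 884 and 1620 in WT-TAC, 2090 and 2210 in Fat1-Sham, and 1710 and 1840 in Fat1-TAC. Like Pdk4 and Plin5, Lpl was lower after TAC without overlap in both genotypes, with log2 fold changes of -0.73 (adjusted p = 0.179) and -0.28 (adjusted p = 1). Acadm, a dehydrogenase of medium-chain fatty acid oxidation, had 858 FPKM in WT-TAC1 and 1330 to 1760 in the other 7 libraries.

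Pck1, a gluconeogenic enzyme that fat tissue also expresses, had 26.0 and 39.4 FPKM in WT-Sham, 96.8 and 102 in WT-TAC, 61.2 and 7.14 in Fat1-Sham, and 0.204 and 13.9 in Fat1-TAC. Its libraries followed the same grouping as those of Angptl4, with the 3 lowest being Fat1-TAC1, Fat1-Sham2 and Fat1-TAC2. The log2 difference between Fat1-TAC and WT-TAC was -4.57 (SE 1.25, adjusted p = 0.150).

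PPARs, their RXR partners and cofactors were measured as a list of 17, all tested, and limma called 0 of them in any comparison. Without adjustment (p under 0.05 and 1.5-fold), 5 were higher and 1 lower in wild-type TAC, where 22.7% and 1.11% of all genes were, and 0 passed in fat-1 TAC. In wild-type TAC the median of the 17 was 0.40 beside 0.39 over all genes, and in fat-1 TAC it was -0.15 beside 0.03. Ncor1, a corepressor, had 120 FPKM in WT-TAC1 and 51.0 to 63.5 in the other libraries. Lpin1, a phosphatidate phosphatase that also acts as a coactivator, lay between 38.2 and 67.3 FPKM, lowest in WT-TAC1 and Fat1-TAC1, and the receptor Rxrb lay between 47.3 and 64.5. The 3 PPARs were named after their values were seen. Ppara had 34.5 and 26.4 FPKM in WT-Sham, 18.6 and 35.3 in WT-TAC, 37.7 and 34.9 in Fat1-Sham, and 21.6 and 26.7 in Fat1-TAC. Its libraries overlapped in wild-type hearts and were lower after TAC without overlap in fat-1 hearts (log2 fold change -0.57, adjusted p = 1). Ppard lay between 18.3 and 23.4 FPKM in all 8 libraries. Pparg, which is abundant in adipocytes, had 16.8 and 27.3 FPKM in WT-TAC and 9.62 to 13.0 in the other 6.

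Members of the same gene families and genes of other fasting signals gave 0 calls by limma as well. Of 17 relatives, 12 had a log2 fold change above 0 in wild-type TAC (median 0.26) and 9 in fat-1 TAC (median 0.05), where 79.3% and 54.5% of all genes were above 0. At an unadjusted p under 0.05 and 1.5-fold, 2 relatives were higher and 1 lower in wild-type TAC, beside 22.7% and 1.11% of all genes, and 0 passed in fat-1 TAC. Acot13, the most abundant relative and a mitochondrial thioesterase, had 234 and 372 FPKM in WT-TAC and 400 to 499 in the other 6 libraries, and in fat-1 hearts both TAC libraries (499 and 466) lay above both sham libraries (400 and 446), the opposite of Acot1 and Acot2. Genes known to rise with glucocorticoids, FoxO factors or fasting (19, of which 18 were tested) had medians of 0.13 and -0.08 with TAC in wild-type and fat-1 hearts. Without adjustment (p under 0.05 and 1.5-fold), 2 of them were higher and 2 lower in wild-type TAC (22.7% and 1.11% of all genes), and in fat-1 TAC 1 was higher and 1 lower, where 1.33% and 0.533% of all genes were. Txnip lay between 178 and 353 FPKM, Mt1 between 104 and 262, and Trim63 between 57.7 and 172. The hypoxia-induced genes (10) had medians of 0.33 and -0.11, with Ldha between 513 and 680 FPKM and Vegfa between 168 and 394. At the same unadjusted p and fold, 4 of them were higher and 1 lower in wild-type TAC (22.7% and 1.11% of all genes), and 0 passed in fat-1 TAC.

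The remaining marker lists were read for tissue makeup. Hypertrophy genes (4 found, led by Ankrd1) summed to 773 and 1010 in WT-TAC, 1340 and 1160 in Fat1-TAC and between 862 and 1170 in the sham libraries. These sums hide Myh7, with 28.9 and 47.3 FPKM in WT-Sham, 50.7 and 89.0 in WT-TAC, 31.1 and 30.5 in Fat1-Sham, and 76.0 and 120 in Fat1-TAC. Myh7 was thus higher after TAC without overlap in both genotypes, as were 15.9% of all genes. Of the 4 genes, 2 had a log2 fold change below 0 in wild-type TAC and 1 in fat-1 TAC. B and plasma cell genes (6, led by Ighm) summed to 393 in WT-TAC1, 217 in WT-TAC2 and 213 in Fat1-TAC2, and to at most 10.7 elsewhere. Endothelial genes (7, led by Cdh5) lay between 237 in WT-TAC1 and 368 in WT-Sham2. Red blood cell genes (5, led by Hbb-bs) summed to 10600 and 9670 in WT-Sham, 5030 and 8430 in WT-TAC, 6200 and 4910 in Fat1-Sham, and 4240 and 5230 in Fat1-TAC. Of all these markers limma called Lyz2, lower in Fat1-TAC than in WT-TAC (log2 difference -1.02, adjusted p = 0.0705), and airway and epithelial genes. Of the 8 airway and epithelial genes, 6 were called between WT-TAC and WT-Sham (Scgb1a1, Scgb3a2, Bpifa1, Cdh1, Krt8 and Foxj1), beside 0.935% of all genes. Between Fat1-TAC and WT-TAC, 7 were called, the same 6 and Krt18, where 1.43% of all genes were called. In the interaction, Scgb3a2 was called (adjusted p = 0.0659), beside 0.0692% of all genes.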

How the data were processed

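RNA-sequencing of 8 mouse heart libraries was analysed, 2 per group. The authors deposited FPKM values for 25929 genes with Ensembl identifiers. The submitters' processing notes name HISAT2 and the builds GRCm38 and mm10. Counting program, versions and annotation are not given in the sources used here. Of the genes, 25852 were matched to a symbol through GENCODE M21, 77 were not, and 4 blank lines were removed. Fragments per library were recovered as the whole numbers that 100.00% of the genes gave at a single gene length (relative tolerance 3e-09), and served for depth, a floor of 3 fragments and limma-voom. This floor covers counting error only.

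As the design foresaw for a table without counts, limma (version 3.58.1, R 4.3.3) was run on log2(FPKM + 1) over genes that reached 1 FPKM in 2 or more libraries, with lmFit and eBayes (trend) and 4 group means, for the 4 pairwise comparisons, the interaction, and TAC and fat-1 averaged. The study names t-tests. A call needed 1.5-fold and an adjusted p (Benjamini-Hochberg) under 0.1. Scripts were tested on simulated data. The members and lists were chosen with earlier results of these data known. Named were all 9 genes, the 3 genes most like each, the called and the 3 most abundant genes of each pathway list, Fabp3 and Pck1, beside marker lists of 12 tissues or states. Correlations used all 40320 orders of the 8 libraries (Python 3.11.15, numpy 2.4.6). Promoters are RefSeq windows (GRCm38.p6), and coding sequences are of GENCODE M21, aligned with Biopython 1.88. Alternatives were 3 rescalings, quantile normalization, 2 filters, a pseudocount of 0.1, only the groups compared, a replicate block, a per-gene test, limma-voom, and leaving out each library.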

Additional observations from a re-analysis of the deposited data

Results flagged for a closer look

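Angptl4 and Plin2 were marked because TAC went with opposite differences in the 2 genotypes. In both genes the 2 WT-TAC libraries lay above the 2 WT-Sham libraries and the 2 Fat1-TAC libraries below the 2 Fat1-Sham libraries. The difference between the effects of TAC was -2.20 on the log2 scale for Angptl4 (SE 0.59) and -0.50 for Plin2 (SE 0.21). By limma the adjusted p was 0.495 for each, so neither passed the threshold. Of all genes tested, 7.93% had this arrangement of libraries as deposited, and 3.25% after scaling by the median of ratios, where Angptl4 kept it and Plin2 did not. Outliers were not examined because each group holds 2 libraries.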

How the results depend on the processing

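With all libraries, the 9 genes gave 0 calls between Fat1-TAC and WT-TAC, in place of 1, under every other setting except the scaling to cardiomyocyte genes. By setting, the log2 differences with the opposite sign were few. The median of ratios gave -0.19 for Plin2 and -0.19 for Cpt1a in wild-type TAC, 0.32 for Cpt1a between the TAC groups, 0.00 for Plin2 between the sham groups, 0.34 for the interaction of Cpt1a, -0.22 (Plin2) and -0.02 (Cpt1a) for TAC averaged, and 0.15 for Cpt1a with fat-1 averaged. Quantile normalization gave Cpt1a -0.27, 0.41, 0.45, -0.05 and 0.18 in wild-type TAC, between the TAC groups, in the interaction, with TAC averaged and with fat-1 averaged, and Plin2 -0.08 with TAC averaged. Scaling to cardiomyocyte genes gave interactions of -0.43 (Pdk4), -0.20 (Acot1), -0.07 (Acot2) and -0.07 (Plin5), and TAC averaged of 0.05 (Angptl4) and 0.04 (Ucp3). Leaving out mitochondrially encoded genes gave 0.04 for the interaction of Cpt1a and 0.00 for Plin2 with TAC averaged. The causes were not tested.

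With a library left out, calls among the 9 ranged from 0 to 5 in wild-type TAC, 0 to 6 between the TAC groups, 0 to 4 in the interaction, 0 to 5 with TAC averaged and 0 to 6 with fat-1 averaged. The highest counts came without WT-TAC2, where only WT-TAC1 remained and 7065 genes were called in wild-type TAC in place of 135, 7523 between the TAC groups in place of 206, 6398 in the interaction in place of 10, 3559 with TAC averaged in place of 0 and 3581 with fat-1 averaged in place of 6. Without WT-TAC1 these counts were 20, 25, 12, 87 and 25. Leaving out WT-Sham1 or WT-Sham2 gave 0 calls in wild-type TAC and 42 between the TAC groups, and leaving out Fat1-Sham1 or Fat1-Sham2 gave 43 and 83. Between the TAC groups the counts were 5 without Fat1-TAC1 and 135 without Fat1-TAC2. In fat-1 TAC, 1 gene was called and 84 with only the groups compared. Log2 values whose sign turned ranged, in wild-type TAC, from -0.17 to 0.67 (Cpt1a) and -1.81 to 0.00 (Ucp3), and in fat-1 TAC from -0.48 to 0.02 (Ucp2). Between the sham groups they ranged from -1.02 to 0.79 (Ucp3), -0.08 to 0.01 (Plin2), -0.48 to 0.36 (Cpt1a), -0.60 to 0.81 (Angptl4) and -0.02 to 0.77 (Acot1). In the interaction they ranged from -0.48 to 0.36 (Cpt1a), -0.59 to 0.68 (Pdk4), -0.21 to 0.58 (Acot1) and -0.06 to 0.84 (Acot2). With TAC averaged they ranged from -0.64 to 0.27 (Ucp3), -0.09 to 0.67 (Ucp2), -0.04 to 0.11 (Plin2) and -0.56 to 0.15 (Angptl4), and with fat-1 averaged from -0.30 to 0.12 (Cpt1a). Of 63 differences, 42 kept their sign in every alternative, among them those of Pdk4, Acot1, Acot2 and Plin5 with TAC in each genotype.

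Replicate numbers did not pair the libraries, as deviations of same-numbered libraries correlated between -0.135 and 0.0236. As a block, they gave 0 calls among the 9 genes in every comparison, and 52 genes in place of 135 in wild-type TAC. limma-voom on recovered fragments called 6 genes in wild-type TAC and 92 between the TAC groups. Correlated pairs numbered 7 with a pseudocount of 0.1 and with the median of ratios, the only alternatives run for pairs. The 2 libraries per group limit each test.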
